A study of Mus musculus with 14 samples.

Results

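The 28 genes described here encode the enzymes of cholesterol and fatty acid synthesis, the SREBP transcription factors that drive them, the INSIG proteins that hold SREBPs back, and a carrier of sterols. They were chosen by gene symbol, and all 28 were among the 48363 genes with values in the deposited table and among the 16241 genes tested. They comprise 8 genes of the mevalonate segment (acetyl-CoA to squalene), 10 of the sterol segment (squalene to cholesterol), 4 SREBP and INSIG genes, 5 genes of fatty acid synthesis, and Stard4.

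Regulatory T cells (Tregs) were sequenced in 14 libraries from untreated mice. cKO Tregs (n = 5) were from mice with the Foxp3-Cre allele and miR-15/16 fl/fl, in which loxP sites flank both the miR-15a/16-1 and the miR-15b/16-2 cluster. WT Tregs (n = 4) were from mice with the same Cre allele and miR-15/16 wt/wt. CD25hi (n = 3) and CD25lo (n = 2) Tregs were the fractions of WT Tregs sorted high and low for the IL-2 receptor chain CD25. Cells of all groups were CD4+ FOXP3-YFP+ cells sorted from a pool of spleen and inguinal, axillary and brachial lymph nodes, so every group carried the Foxp3 allele with YFP and Cre. Cre comes from that allele, so deletion follows the expression of Foxp3, and what the deletion does in the cell and what the altered mouse does to it cannot be told apart in these libraries. The ages of these mice were not assigned to libraries in the sources used here. Values are normalized counts, the reads of a gene divided by the size factor of its library.

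Libraries held 30055573 to 35226685 reads in genes. Mir15a, Mir15b, Mir16-1 and Mir16-2 were listed at 0 in every library, and these data hold no direct check of the deletion. Dleu2, the host transcript of miR-15a/16-1, was at 2121 to 2713 normalized counts in cKO and 86.3 to 1099.7 in WT Tregs. By Xist all 5 cKO libraries and WT replicate 3 were from females, and the other WT libraries and all CD25-sorted libraries were from males. Across 14 immediate early and heat shock genes (transcripts that rise within minutes of stimulation or handling) the mean log2 level was 12.70 in WT replicate 4 and 14.70 to 14.79 in the other WT libraries, 12.99 to 14.62 in cKO, and 12.43 to 13.09 in the CD25-sorted libraries. The summed level of 12 myeloid markers was 474.3 to 4255 normalized counts in cKO, 1136 to 7191 in WT, 437.3 to 916.3 in CD25hi and 530.9 to 1296 in CD25lo Tregs. S100a8 and S100a9 were at 0 in every cKO library, and Csf3r, Cd14, S100a8 and S100a9 in every CD25hi library. The 6 B cell markers summed to 580.3 to 871.2 in cKO, 226.0 to 603.0 in WT and 196.8 to 366.7 in the CD25-sorted libraries, the 6 CD8 and NK markers to 790.2 to 1455 and the 5 red cell markers to 0 to 279.1 normalized counts. The 6 T cell and Treg markers summed to 137738 to 188769 normalized counts, with none at 0 in any group. Il2ra, which encodes CD25, was lower in CD25lo than in CD25hi Tregs, with a log2 difference of -1.43 (limma, adjusted p = 4.8e-07). In bulk libraries fewer cells with a transcript and less of it per cell cannot be told apart.

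Cholesterol is built from acetyl-CoA by way of mevalonate, farnesyl diphosphate and squalene, and the same route supplies the isoprenoids that anchor small GTPases to membranes. When membrane sterol falls, SCAP carries SREBPs from the endoplasmic reticulum to the Golgi, where proteases release the active factor, and INSIG proteins stop this transport when sterol is plentiful. SREBP-2 acts mainly on cholesterol genes and SREBP-1c on fatty acid genes. Activated T cells raise both programs before they divide, and the mevalonate route has been linked to the suppressive function of Tregs.

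The question put to these genes was whether they differed between miR-15/16-deficient and sufficient Tregs and between the CD25lo and CD25hi fractions of WT Tregs. A miRNA lowers mRNAs that pair with its seed, bases 2 to 8, in the 3′ UTR. The mature sequences of the deleted family are shown first because their shared seed, in capitals, defines the sites looked for in the members.
mmu-miR-15a-5p: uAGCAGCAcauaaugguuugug
mmu-miR-15b-5p: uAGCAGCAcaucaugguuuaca
mmu-miR-16-5p: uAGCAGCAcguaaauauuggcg
These are RefSeq sequences on GRCm38.p6. miR-15a lies on chromosome 14, miR-15b on chromosome 3, and miR-16 is encoded on both.

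A match was TGCTGCT, which pairs with bases 2 to 8, or bases 2 to 7 followed by an A, which reads GCTGCTA, in the longest annotated 3′ UTR of a gene (GENCODE vM21). The run TGCTGCTA holds both and was counted as 1. A match of any of these types was present in 4 of the 28 members (14.3%) and in 30.7% of the 12768 genes tested that have an annotated 3′ UTR. Sc5d held 1 match, Hsd17b7 and Scd1 held 4 each, and Fasn held 2. The remaining 24 members, among them both SREBP genes and both INSIG genes, held none. Stretches of Sc5d and Hsd17b7 are printed with the match in capitals. Sc5d holds the longest of the match types and was the only member called in cKO Tregs, where it was lower. In Hsd17b7, 3 of the 4 matches stand in tandem.
Sc5d, bases 3210 to 3217 of 3747: tttgacccttaacaTGCTGCTAaagaa
Hsd17b7, bases 453 to 459 of 3498: cattctccttcataTGCTGCTttggc
Hsd17b7, bases 2812 to 2818 of 3498: tccctaggctggaaTGCTGCTggaat
Hsd17b7, bases 2823 to 2829 of 3498: gaatgctgctggaaTGCTGCTggaat
Hsd17b7, bases 2834 to 2840 of 3498: gaatgctgctggaaTGCTGCTgtggt
A match is a description of the sequence and was not shown to be a site in use.

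The levels of the members were compared per kilobase of exon. The length was that of all annotated exons of a gene merged, which can exceed the length of its mRNA and lower the value. It was 17074 bases for Acaca and 4208 for Fdps, with longest coding transcripts of 9513 and 1382 bases. For Fasn it was 10947 bases, with a longest coding transcript of 10050. Acly, which cleaves citrate to acetyl-CoA in the cytosol, was the most abundant at 2057 normalized counts per kb over the 14 libraries, followed by Srebf2 at 1730, Scd2 at 969.9, Srebf1 at 833.7 and Fasn at 819.1. The lowest were Scd1 at 2.38, Fdps at 9.79 and Idi1 at 18.3 normalized counts per kb, and the median over all genes tested was 114.9. Both SREBP genes and 3 of the 5 genes of fatty acid synthesis thus stood above every enzyme of cholesterol synthesis, the highest of which was Ebp at 626.9. Acaca, the enzyme between Acly and Fasn, was at 35.2.

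**Figure D1:**
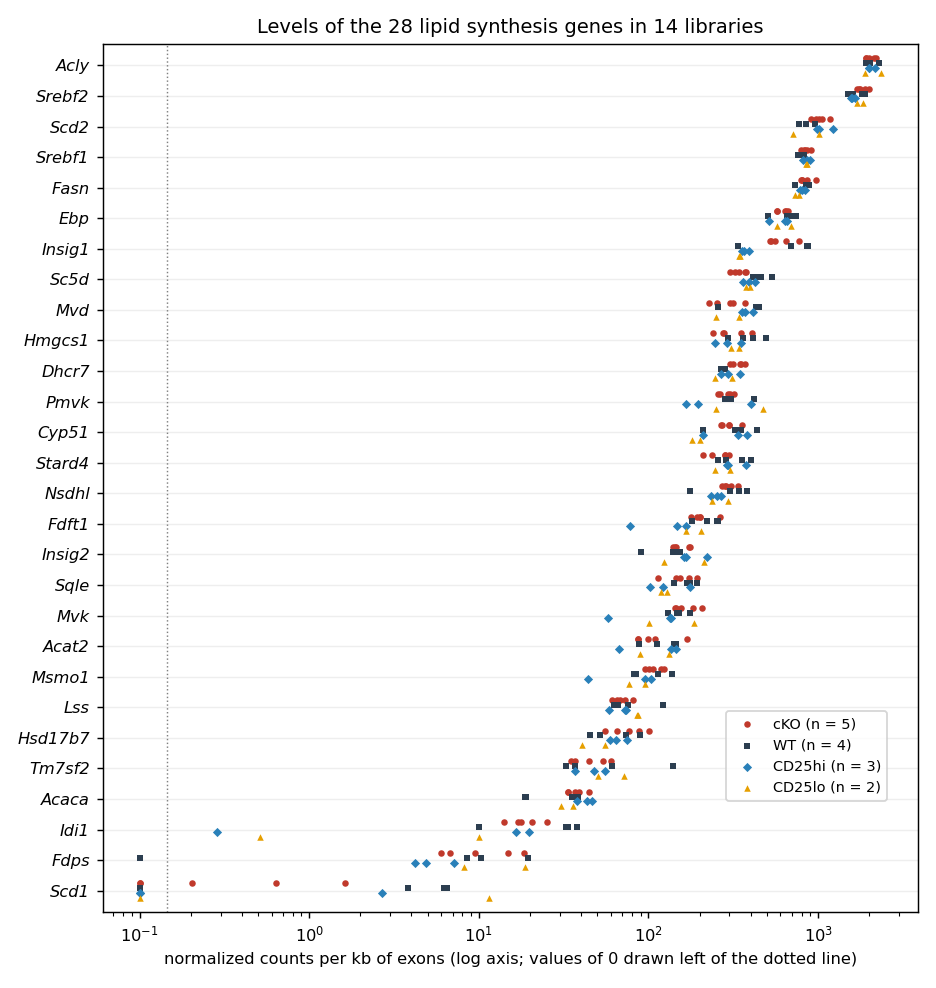
Normalized counts per kb of exon (log axis) of the 28 genes in each of 14 libraries, genes ordered by their mean; each point is a library, its color and shape give the group, and values of 0 are drawn left of the dotted line. Acly and Srebf2 stand at the top, and Idi1, Fdps and Scd1 at the bottom with libraries at or near 0.

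Some counts are uncertain because reads of 50 bases can come from more than 1 gene. A 50-base stretch of the longest coding transcript counted as shared where a transcript of another gene held it in either direction. The 2 directions were not told apart, so overlap with a gene on the opposite strand counts as well. The share was 86.4% for Fdps (8 other genes), 52.6% for Acaca (Gm5182) and 45.9% for Acat2 (Acat3 and Tcp1). It was 30.7% for Fdft1 (Ctsb and Gm6781), 30.5% for Idi1 (5 other genes) and 13.6% for Hmgcs1. It was 4.66% or less for each of the other members, and how such reads were counted is not given in the sources used here. Values of Fdps and Idi1 in particular, at 0 to 82.3 and 1 to 133.2 normalized counts, may describe only the part of the mRNA that can be told apart.

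Between cKO and WT Tregs 1 member passed the test and 27 did not. Sc5d, a sterol desaturase that acts just before Dhcr7 on the way to cholesterol, was lower in cKO Tregs, and none of the 28 was higher. The call rests on limma, with a linear fit on log2(normalized count + 1) and Benjamini-Hochberg adjustment over all genes tested. In all, 3.52% of genes tested were called in this comparison, so 1 of 28 is close to the background. At an unadjusted p under 0.05 there were 5 members, 2 higher and 3 lower, where 16.1% of all genes tested passed. The median difference of the members was -0.08 on the log2 scale, with 12 above 0 and 16 below it, and that of all genes tested was 0.05. edgeR, DESeq2 and limma-voom each called Sc5d and no other member, where they called 3.21%, 8.49% and 3.57% of all genes with an adjusted p.

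In cKO libraries Sc5d was at 1480.5, 1653.6, 1581.6, 1836.4 and 1801.4 normalized counts, and in WT libraries at 1997.1, 2589.2, 2074.8 and 2228.1. Every cKO library was below every WT library. The means were 1671 ± 149.1 (SD, n = 5) and 2222 ± 262.8 (SD, n = 4), a difference of -0.41 on the log2 scale (standard error 0.096, limma adjusted p = 0.0208), or 0.753 times the WT level. The CD25hi libraries, at 1908.3, 2069.7 and 1764.8, and the CD25lo libraries, at 1824.9 and 1919.6, lay between the means of the bulk groups and overlapped each other. Sc5d lies at chr9:42251595-42264256 (GRCm38). Its match to the miR-15/16 seed is shown above. A miRNA lowers the mRNAs it pairs with, and Sc5d was lower, not higher, in the miR-15/16-deficient Tregs. Whether these miRNAs act on Sc5d was not tested.

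The Sc5d call was lost without cKO replicate 1 (adjusted p = 0.0678), cKO replicate 3 (0.0631) or WT replicate 2 (0.0687) in limma, while its difference stayed between -0.46 and -0.33. With a term for sex, which sets the cKO libraries against the only female WT library, the difference was -0.32 (limma adjusted p = 0.815), and sex and genotype cannot be told apart in the other bulk libraries. With the immediate early level as a term it was -0.39 (limma adjusted p = 0.025), and among bulk libraries of like immediate early level (cKO replicates 4 and 5 against WT replicates 1 to 3) it was -0.28 (limma adjusted p = 0.576). Calls over all genes tested fell as well, from 572 of 16241 to 22 with the sex term and 89 among these like-level libraries. Without cKO replicate 1, cKO replicate 3 or WT replicate 2 they were 349, 356 and 475. The part of the myeloid level in the Sc5d difference was not tested.

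Dhcr7, the reductase that completes cholesterol, stood the other way. It was at 2044.3, 2020.0, 1761.7, 2148.4 and 1822.3 normalized counts in cKO and at 1585.8, 1597.6, 1548.2 and 1643.3 in WT Tregs. The groups did not overlap, and the WT libraries lay close together. The difference of 0.29 on the log2 scale (standard error 0.098) did not pass the test (limma unadjusted p = 0.00764, adjusted p = 0.117). With a term for sex its unadjusted p in limma was no longer under 0.05. As for Sc5d, all cKO libraries but only WT replicate 3 among the WT libraries were from females. Sc5d and Dhcr7 were the only members whose cKO and WT libraries did not overlap, 2 of 28, where 8.54% of all genes tested did not overlap. The ratio of Dhcr7 to Sc5d, chosen after their values were seen, was 1.01 to 1.38 in the cKO and 0.617 to 0.794 in the WT libraries. It was 0.781 to 0.969 in the CD25-sorted libraries. Both genes already separated the bulk groups in opposite directions, so their ratio had to do so and adds no evidence. These 2 enzymes act one after the other at the end of the sterol segment.

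**Figure D2:**
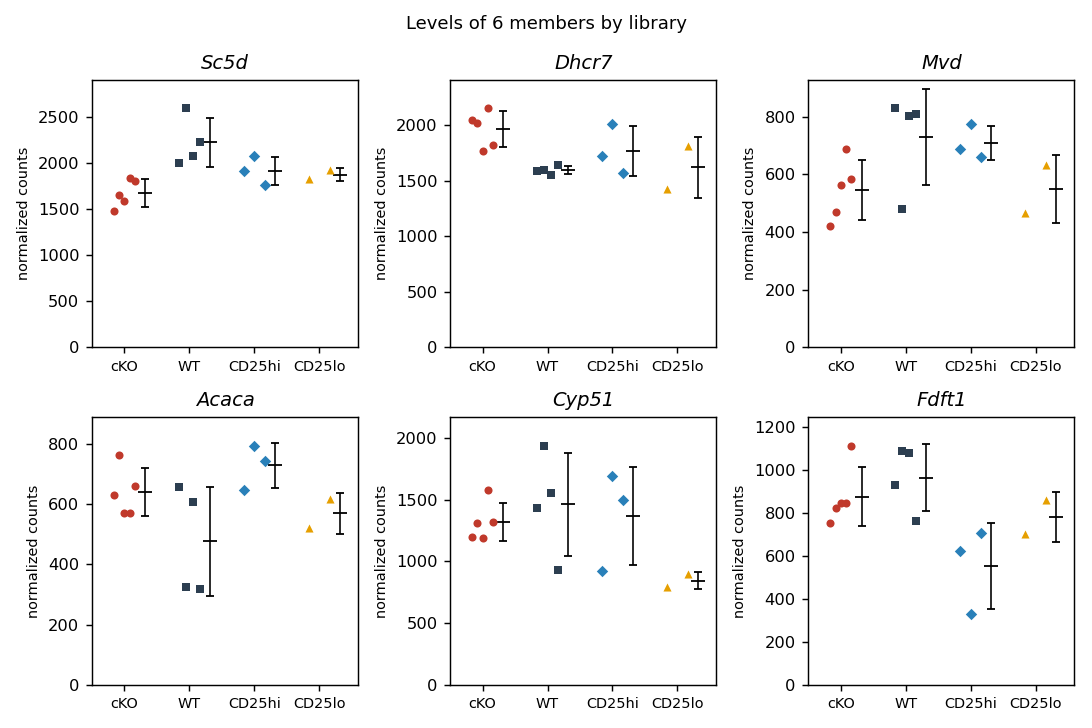
Normalized counts of 6 members in each library (points), with the mean ± SD of each group beside them; the vertical axes start at 0. Sc5d and Dhcr7 separate the 5 cKO from the 4 WT libraries in opposite directions, WT replicate 2 stands apart for Mvd, and Cyp51 in both CD25lo libraries lies below all 3 CD25hi libraries.

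In the rest of the sterol segment no member passed the test in cKO Tregs. Sqle, which oxidizes squalene, differed by -0.13 (95% interval -0.49 to 0.22), Lss, which closes the rings of lanosterol, by -0.18 (-0.54 to 0.17), and the demethylase Cyp51 by -0.11 (-0.50 to 0.29). Msmo1, Nsdhl and Hsd17b7, which work together to remove methyl groups from the sterol, differed by 0.09, 0.04 and 0.26. The intervals of these 3 reached from -0.39 to 0.78. Hsd17b7, with 4 seed matches, was at 281.8 to 513.1 normalized counts in cKO and 232.3 to 456.1 in WT Tregs, and the groups overlapped. The isomerase Ebp differed by -0.06 (-0.31 to 0.19). The reductase Tm7sf2 was at 612.5 normalized counts in WT replicate 4 and 143.1 to 266.6 in the other bulk libraries, and its difference of -0.32 had a wide interval (-1.10 to 0.46). Nsdhl and Ebp are on the X chromosome, and in WT replicate 3, the female WT library, they were at 861.0 and 1167.0 normalized counts, with 498.4 to 1081.9 and 1516.8 to 1715.0 in the male WT libraries.

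The mevalonate segment held no called member either. Its 8 genes had a median difference of -0.17, with 2 above 0 and 6 below. Mvd, which makes isopentenyl diphosphate, was at 421.9, 468.7, 561.6, 688.1 and 584.8 normalized counts in cKO and 828.8, 480.5, 802.1 and 807.8 in WT Tregs, a difference of -0.41 (limma unadjusted p = 0.0441, adjusted p = 0.292). Every cKO library was below 3 of the WT libraries, and WT replicate 2 lay among the cKO libraries. With each library left out in turn the difference of Mvd ran from -0.60 to -0.32 (limma adjusted p = 0.0704 to 0.512). The largest was that without WT replicate 2, and none passed. Hmgcs1, which condenses acetyl-CoA with acetoacetyl-CoA, was at 1097.4, 1883.3, 1273.1, 1611.3 and 1266.8 in cKO and 1668.1, 2272.5, 1909.1 and 1358.6 in WT Tregs. These libraries overlapped, and the difference was -0.34 (95% interval -0.68 to 0.00, limma adjusted p = 0.310). The thiolase Acat2 differed by -0.16, the mevalonate kinases Mvk and Pmvk by 0.13 and -0.18, and squalene synthase, Fdft1, by -0.14, with intervals that all held 0. The isomerase Idi1 and farnesyl diphosphate synthase, Fdps, differed by -0.45 and 1.19 with intervals of -2.50 to 1.61 and -0.99 to 3.36, which hold changes of several fold in either direction. WT replicate 2 had no read of Fdps, and the CD25-sorted libraries, which enter the same fit, ran from 1.0 to 69.4 normalized counts of Idi1.

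The SREBP genes were close to level. Srebf2, which encodes SREBP-2, was at 12103 to 14321 normalized counts in cKO and 10800 to 13627 in WT Tregs (difference 0.10, 95% interval -0.05 to 0.25). Srebf1 was at 4473 to 5145 and 4280 to 4648 (difference 0.10, -0.03 to 0.23). Their intervals lie within 0.25 of 0 on the log2 scale. Insig2, which is not itself a target of SREBP-2, was at 481.8 to 610.2 in cKO and 313.4 to 530.0 in WT Tregs (difference 0.26, -0.16 to 0.68). Insig1, which SREBPs induce, differed by -0.11 (-0.55 to 0.32) and was spread from 1040.0 to 2680.2 among the WT libraries. The mRNA levels of Srebf1 and Srebf2 do not show how much SREBP was cleaved.

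Fatty acid synthesis held no called member. Acly, Fasn, which makes palmitate, and Scd2, a desaturase, differed by -0.01 (95% interval -0.17 to 0.14), 0.02 (-0.13 to 0.17) and 0.21 (-0.01 to 0.43). The intervals of Acly and Fasn lie within -0.17 to 0.17. Fasn holds 2 seed matches, and was at 8719 to 10654 normalized counts in cKO and 7996 to 9701 in WT Tregs. Acaca, which makes malonyl-CoA, was at 631.0, 763.5, 569.4, 570.1 and 661.1 in cKO and 657.0, 323.2, 606.9 and 317.6 in WT Tregs. WT replicates 2 and 4 were far below the rest and the groups overlapped, with a difference of 0.50 (limma unadjusted p = 0.0289, adjusted p = 0.238). Scd1, with 4 seed matches, was at 0, 0, 1, 8 and 3.1 normalized counts in cKO and 18.7, 0, 30.5 and 31.9 in WT Tregs, too few reads for a change to be read from it (difference -2.34, 95% interval -5.23 to 0.55). Stard4, which moves sterol between membranes, was at 1176 to 1673 in cKO and 1435 to 2235 in WT Tregs (difference -0.30, limma unadjusted p = 0.044, adjusted p = 0.292).

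**Figure D3:**
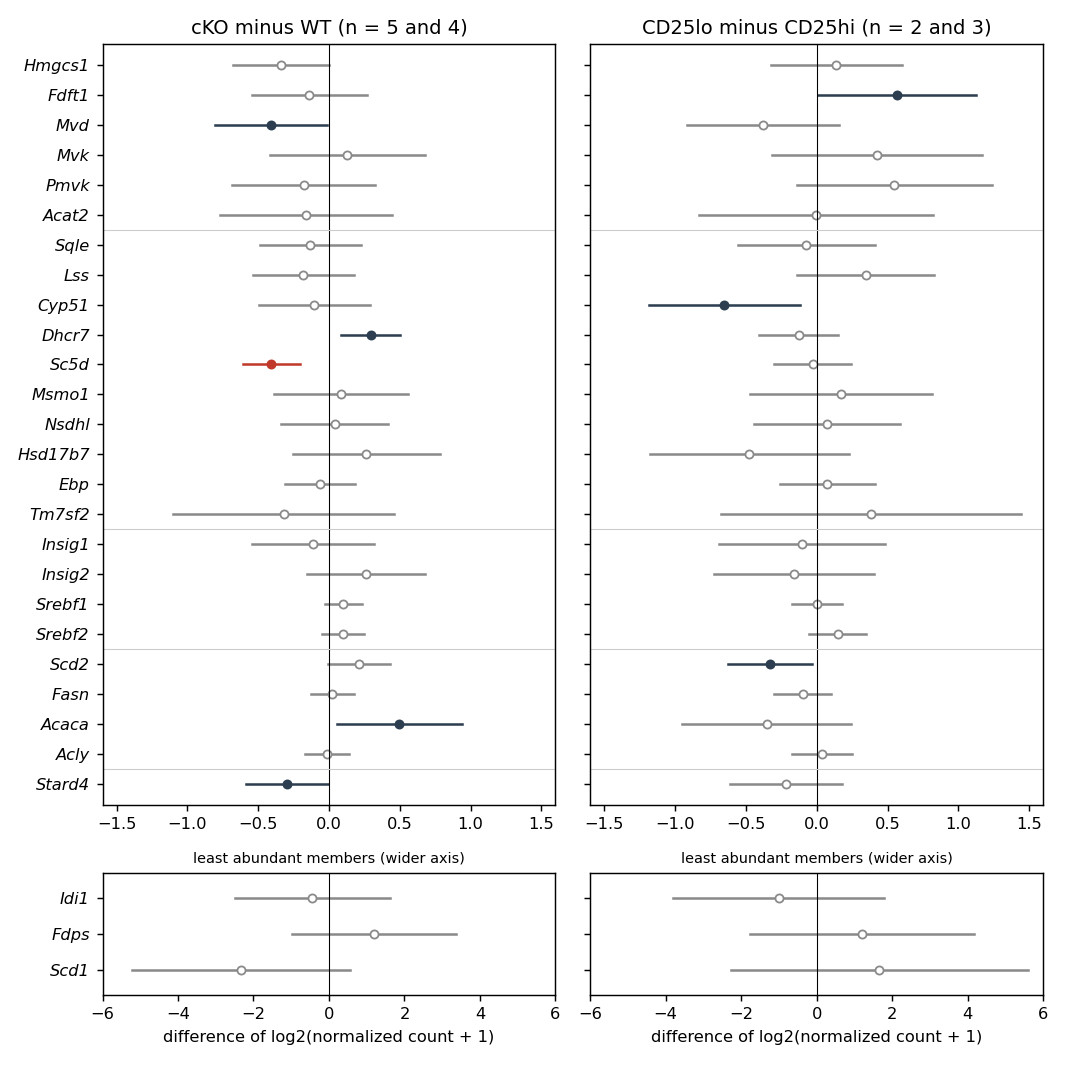
Difference of log2(normalized count + 1) of each member between cKO and WT (left) and CD25lo and CD25hi Tregs (right), with 95% intervals from limma; lines separate mevalonate, sterol, SREBP and INSIG, fatty acid and transport genes, and the 3 least abundant members have a wider axis. Red marks the adjusted p of 0.0208 (Sc5d), dark filled points an unadjusted p under 0.05, open points the rest.

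Between CD25lo and CD25hi WT Tregs none of the 28 members passed the test in limma, edgeR, DESeq2 or limma-voom, with 1.62% of all genes tested called by limma. At an unadjusted p under 0.05 limma counted 3 members, against 13.5% of all genes tested. The median difference was 0.00, the same as that of all genes tested, with 14 members above 0 and 14 below. With 2 and 3 libraries, the groups did not overlap for 9 of 28 members, where 24.5% of all genes tested did not overlap.

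The 3 members were Cyp51, Fdft1 and Scd2. Cyp51 was at 795.6 and 894.2 normalized counts in CD25lo and 922.2, 1687.8 and 1498.0 in CD25hi Tregs, a difference of -0.65 (limma unadjusted p = 0.0193, adjusted p = 0.246). Both CD25lo libraries were below all CD25hi libraries, though CD25hi replicate 1 was close to them. Fdft1 was at 701.0 and 862.9 in CD25lo and 624.8, 328.0 and 707.5 in CD25hi Tregs (difference 0.56, limma unadjusted p = 0.0471, adjusted p = 0.365). Its groups overlapped, and CD25hi replicate 2 was the lowest of all 14 libraries. Scd2 was at 3903.5 and 5519.6 in CD25lo and 5379.5, 5561.4 and 6681.2 in CD25hi Tregs (difference -0.33, limma unadjusted p = 0.0301, adjusted p = 0.299), with CD25lo replicate 2 among the CD25hi libraries.

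Sc5d and Dhcr7 differed by -0.03 (95% interval -0.30 to 0.24) and -0.13 (-0.41 to 0.15) between CD25lo and CD25hi Tregs. Srebf1, Srebf2, Acly and Fasn differed by 0.00, 0.15, 0.04 and -0.10, with intervals that reached from -0.30 to 0.35. Insig1 was at 1063.8 and 1070.8 in CD25lo and 1209.3, 1130.6 and 1102.7 in CD25hi Tregs, and its difference of -0.10 had an interval of -0.69 to 0.48. In the mevalonate segment Hmgcs1, Mvk, Pmvk and Fdps differed by 0.14, 0.43, 0.55 and 1.20, and Acat2, Mvd and Idi1 by -0.01, -0.38 and -1.01. The remaining sterol genes ran from -0.48 for Hsd17b7 to 0.39 for Tm7sf2. Insig2, Acaca and Stard4 differed by -0.16, -0.35 and -0.22. Scd1 was at 0 and 56.5 normalized counts in the 2 CD25lo libraries, and its difference of 1.65 had an interval of -2.29 to 5.59. The intervals of 19 of the 28 members lay within a 2-fold change, and those of 9 within 1.5-fold, so moderate changes of the others were not detectable with these libraries.

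The difference between the effects of the deletion and of the CD25lo state was tested as a contrast of both comparisons. No member passed it in limma (1.03% of all genes tested did), edgeR, DESeq2 or limma-voom, and 5 members had an unadjusted p under 0.05 in limma, against 13.8% of all genes tested. Scd2 was 0.54 higher for the deletion than for the CD25lo state (limma unadjusted p = 0.00621, adjusted p = 0.153), Dhcr7 0.42 and Acaca 0.85 higher, and Sc5d 0.38 and Fdft1 0.70 lower, with limma adjusted p of 0.256, 0.288, 0.303 and 0.354. The lower Sc5d level was therefore not shown to be particular to the deletion.

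CD25hi and bulk WT Tregs were compared as well. This comparison shares its libraries with the others, and the immediate early level moved with it, at 12.43 to 12.66 in CD25hi and 12.70 to 14.79 in WT libraries. So did the myeloid markers, with a median log2 difference of -2.74, 7 of 10 tested at an unadjusted p under 0.05, and Cd68, a lysosomal protein of macrophages, called lower (-1.98, limma adjusted p = 0.0444). No member passed the test in limma, edgeR or limma-voom, and 1.05% of all genes tested did in limma. DESeq2 called 2, Fdft1 and Insig1, both lower in CD25hi Tregs (adjusted p = 0.0247 and 0.00766), where it called 4.33% of all genes with an adjusted p. At an unadjusted p under 0.05 limma counted 6 members, 3 higher and 3 lower, against 14.3% of all genes tested. Fdft1, whose CD25hi libraries were all below its WT libraries, fell short of the threshold at a difference of -0.86 (limma adjusted p = 0.0614), Insig1 at -0.80 (0.101) and Hmgcs1 at -0.40 (0.335). Acaca, Insig2 and Scd2 were at 0.69, 0.48 and 0.28 (limma adjusted p = 0.172, 0.335 and 0.267). Without WT replicate 4, Insig1 (difference -1.11, limma adjusted p = 5.58e-05) and Fdft1 (-0.97, limma adjusted p = 0.0161) passed, where 5.18% of all genes tested did. Without CD25hi replicate 2 the difference of Fdft1 was -0.52 (limma adjusted p = 0.266), and with the immediate early level as a term it was -0.46 (limma adjusted p = 0.663). The part of the myeloid level in these differences was not tested. The stretches that Fdft1 shares with Ctsb, as given above, were counted in either direction and need not be alike in the 2 mRNAs.

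Insig1 was higher in the libraries with a high immediate early level. It was at 2680.2, 2672.2 and 2137.8 normalized counts in WT replicates 1 to 3 and at 1040.0 in WT replicate 4. In cKO it was at 1713.2, 1622.9 and 1619.6 in replicates 1 to 3 and at 2374.5 and 1998.1 in replicates 4 and 5. The 5 libraries with an immediate early level above 14 held 1998 to 2680 normalized counts, more than any of the other 9 libraries. Among the libraries on either side of that level Insig1 did not keep the order, as in cKO, where replicate 5 had the higher immediate early level and less Insig1 than replicate 4. A slope on the immediate early level, with the 4 group means fitted, was added after these values were seen, so it describes the same libraries. The slope of Insig1 was 0.47 log2 units per log2 unit (standard error 0.080, limma adjusted p = 0.00146), and it was the only called member, where 2.62% of all genes tested were called. At an unadjusted p under 0.05 there were 5 members, against 15% of all genes tested. The others were Cyp51 and Nsdhl with slopes of 0.29 and 0.25 and Lss and Tm7sf2 with slopes of -0.32 and -0.61 (limma adjusted p = 0.166, 0.242, 0.0555 and 0.127).

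WT replicate 4 decides much of this slope, and without it that of Insig1 was 0.24 (limma adjusted p = 0.891). The slope calls over all genes fell too, to 43 of the 16127 tested without that library, from 426 of 16241. With the immediate early level as a term, the difference of Insig1 between CD25hi and WT Tregs was -0.0016 (limma adjusted p = 0.999). The summed myeloid level was 1374 to 7191 normalized counts in the 5 libraries with the higher immediate early level and 437.3 to 1296 in the other 9, so these levels moved together and their parts were not tested. The slope of Sc5d was 0.04 (limma adjusted p = 0.791), although within cKO its 2 libraries above 14, at 1836.4 and 1801.4 normalized counts, were higher than the 3 below, at 1480.5 to 1653.6.

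**Figure D4:**
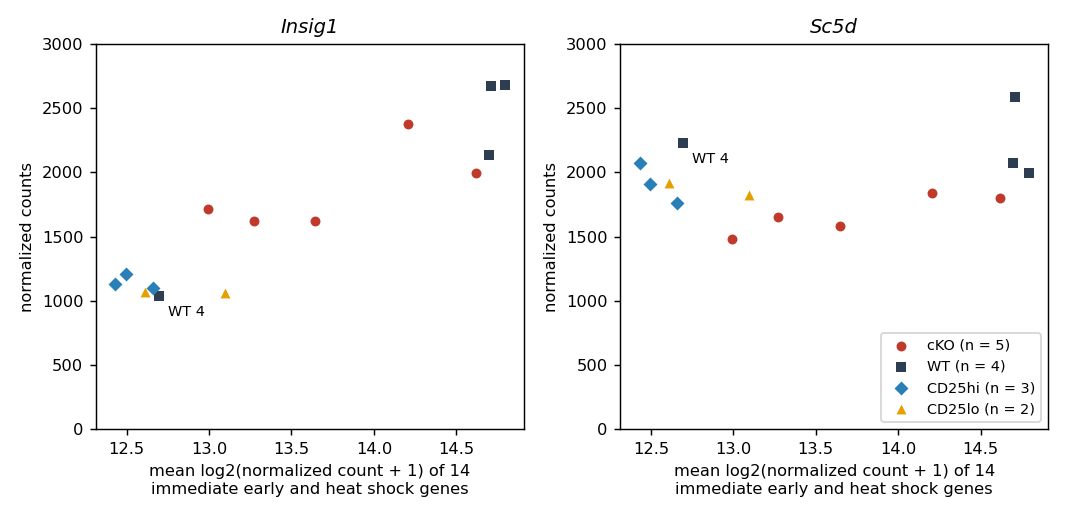
Normalized counts of Insig1 (left) and Sc5d (right) in each library against the mean level of 14 immediate early and heat shock genes on the log2 scale; each point is a library, its color and shape give the group, and WT replicate 4 is labelled. Insig1 runs from 1040.0 in WT replicate 4 to 2680.2 in WT replicate 1 along the axis, while the cKO libraries of Sc5d lie below the WT libraries at both ends.

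Promoters were read for 22 members that matched RefSeq (29 promoters of 250 bases before to 50 after a start, GRCm38.p6), since these genes are known to answer to shared factors. Letters were searched on both strands. The sterol regulatory element TCACNCCAC was present for 1 of the 22 genes, Hmgcs1, and in 1.2% of all 32851 promoters. The E-box CACGTG was present in 4 of the 29 promoters (13.8%), those of Sc5d, Dhcr7, Hsd17b7 and Insig1, and in 7.15% of all. CCAAT, the letters bound by NF-Y, was present in 21 of the 29 (72.4%) and in 37.4% of all. The windows with the sterol element or the E-box are printed on the strand of the gene, with the motif in capitals.
Hmgcs1, chr13:119690204-119690232, + strand: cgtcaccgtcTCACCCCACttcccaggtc
Sc5d, chr9:42264383-42264408, - strand: acgcggcgacCACGTGaccgccgcga
Dhcr7, chr7:143823225-143823250, + strand: ctgtgatgaaCACGTGgcaaaaagca
Hsd17b7, chr1:169969333-169969358, - strand: acccttgtgtCACGTGgctccgcccc
Insig1, chr5:28071301-28071326, + strand: tgggtgaggtCACGTGgctccggtgg
The element of Hmgcs1 begins 137 bases before the RefSeq start, and the E-boxes of the 4 other genes begin 98 to 164 bases before it. Sc5d and Dhcr7, whose differences in cKO Tregs had opposite signs, both hold the E-box. A match is a description of the letters, not a site in use. Only these letters in these windows were searched, so a variant or a more distant site would have been missed.

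The neighbouring pathways gave few calls. Of 20 tested genes from a list of other lipid synthesis and SREBP-linked genes, 12 of the isoprenoid branch and 14 of fatty acid oxidation, none was called by limma in any of the 4 comparisons. At an unadjusted p under 0.05 there were 2 of each list between cKO and WT Tregs (16.1% of all genes tested), 3, 1 and 3 between CD25lo and CD25hi (13.5%), 2, 2 and 2 for the difference (13.8%), and 2, 4 and 0 between CD25hi and WT (14.3%). Among 15 tested genes of sterol efflux, uptake and storage, Npc2, which hands cholesterol out of the lysosome, was called in the difference between the effects (-0.49, limma adjusted p = 0.0304) and in no other comparison. By unadjusted p under 0.05 this list held 3 genes between cKO and WT, 5 between CD25lo and CD25hi, 5 for the difference and 3 between CD25hi and WT Tregs. Npc2 was at 6056 to 7078 normalized counts in cKO and 6995 to 7902 in WT Tregs, and at 8101 to 8555 in CD25lo and 6447 to 6892 in CD25hi Tregs. Of 16 proliferation genes none was called in any comparison, with a median difference of 0.02 between cKO and WT and -0.33 between CD25lo and CD25hi Tregs. Of these 16, the unadjusted p was under 0.05 for 2 between cKO and WT, 7 between CD25lo and CD25hi, 5 for the difference and 0 between CD25hi and WT Tregs. Immediate early and heat shock genes were called only between CD25hi and WT Tregs, where 7 of 14 were lower, Fosb, Fos, Dusp1 and Zfp36 among them.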

How the data were processed

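The authors used STAR 2.7.2b to align single-end reads of 50 bases to GRCm38. For each gene and library they deposited a signal, which is the read count divided by a DESeq2 1.24.0 size factor, rounded to 0.1 (normalized counts). The counting tool and its treatment of shared reads are not given in the sources used here. Multiplying by the size factor gave whole reads for 100% of values (within 0.055 normalized counts). The authors' own fold changes and p-values were not used. Groups came from the labels.

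Limma-trend (limma 3.58.1, R 4.3.3) fitted 4 group means to log2(normalized count + 1) in all 14 libraries. Genes entered at 10 normalized counts or more in 2 libraries or more and were called where the p adjusted by Benjamini-Hochberg was under 0.05. The code was tested on simulated data. Alternatives were edgeR 4.0.16, DESeq2 1.42.0 and limma-voom on recovered reads, other filters and pseudocounts (0.5 and 5), other terms, and each library left out. Levels per kb used exons of GENCODE vM21 (GRCm38), as did 3′ UTRs. All 28 members are named, and of other lists up to 4 genes that passed. The members and lists were chosen with earlier results of these data known. P-values measure the spread between libraries that the labels call biological replicates.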

Additional observations from a re-analysis of the deposited data

Results flagged for a closer look

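Within the groups of 5 cKO and 4 WT libraries, 3 of 56 sets of values had a library far from the others relative to the spread of the group, and chance gives about 1 in 20. Fdft1 was at 1114.1 normalized counts in cKO replicate 5 and 755.9 to 846.2 in the other cKO libraries. Mvd was at 480.5 in WT replicate 2 and 802.1 to 828.8 in the other WT libraries. Acat2 was at 426.9 in cKO replicate 2 and 220.4 to 279.3 in the other cKO libraries, and 45.9% of its 50-base stretches are shared with other genes.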

How the results depend on the processing

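The count of members called between cKO and WT Tregs was 1 (Sc5d), where 572 of all 16241 genes tested were called. It fell to 0 with a term for sex, where 22 of all genes tested were called. Among bulk libraries of like immediate early level, a choice made after seeing the data, it was also 0, where 89 were called. Leaving out each library gave 0 to 1, with 0 without cKO replicate 1, cKO replicate 3 or WT replicate 2. The counts between CD25lo and CD25hi Tregs and for the difference of the effects were 0 under every alternative. Between CD25hi and WT Tregs the count was 0, 2 with DESeq2, and 0 to 2 with each library left out (2 without WT replicate 4). The slope on the immediate early level called 1 member, and 0 to 2 with each library left out (0 without WT replicate 4; 2, Insig1 and Lss, without CD25hi replicate 2, CD25lo replicate 1 or CD25lo replicate 2). Over all genes tested this slope called 426 with all libraries and 43 without WT replicate 4. Where a CD25lo library is left out, the lone library is assumed to vary like the other groups. Of 1482 differences of single members between cKO and WT or CD25lo and CD25hi Tregs under the alternatives, 5 lost the call, all of Sc5d, and none gained it or turned a called direction; 60 values that were not called changed sign. DESeq2 gave no adjusted p for Scd1, Idi1 and Fdps between cKO and WT Tregs.

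Replicate numbers were not taken to pair the libraries. Deviations of same-numbered cKO and WT libraries from their group means correlated at -0.41 to -0.08 over 5830 genes, and 0 of 8 libraries correlated best with their own number. For CD25hi and CD25lo libraries the correlations were 0.17 (replicate 1) and -0.05 (replicate 2), and the labels do not say that a number marks the same mouse. With the replicate number as a block, 1 member was called between cKO and WT Tregs (Sc5d, difference -0.44, limma adjusted p = 0.0363) and 0 in the other comparisons.

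The widest intervals were those of Scd1, Fdps and Idi1, the least abundant members. The cause of the lost calls was not tested.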
